A study of Mus musculus with 4 samples.

Results

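The genes described here are a module of interferon-induced and MHC class I genes, followed through the cell classes of mouse pancreatic islets. The module was set by a list of 33 gene symbols and not by measured values. Of these, 32 were found among the 32285 genes of the deposited tables and all 32 are accounted for below, while Mx1 was not analysed here. Of the 32 genes, 27 are interferon-induced genes and 5 belong to MHC class I presentation (B2m, H2-K1, H2-D1, Tap1 and Tap2).

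Islets of female mice on the C57b6/J background were profiled by droplet single-cell RNA sequencing in 4 libraries, 1 for each genotype and age: CCR2-DTR+/- at 6 months, CCR2-DTR+/- at 1 month, wild type (WT) at 6 months and WT at 1 month. In CCR2-DTR mice a transgene puts the receptor for diphtheria toxin on cells that express the chemokine receptor CCR2, such as monocytes and cells derived from them. All groups, the WT littermates included, received diphtheria toxin as newborns, with 4 injections 48 hours apart from postnatal day 2, and were fed chow after weaning at day 21. Each library was made from 300 islets pooled from 2 to 3 females, so animals cannot be told apart, no test between groups was possible, and a difference between 2 libraries has no replicate check. Levels are unique molecular identifiers (UMIs, counted RNA molecules) summed over the cells of a class and given per 1000000 of that class's UMIs from nuclear genes other than the islet hormones (CPM). Intervals are 95% intervals for counting error alone, and leave out variation among cells, mice and islet preparations.

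Type I interferons (interferon alpha and beta) act through the receptor IFNAR, the kinases JAK1 and TYK2 and a transcription factor complex that contains STAT2 and IRF9 and binds the interferon-stimulated response element in promoters. Type II interferon (interferon gamma, made mostly by T and NK cells) acts through the receptor IFNGR and induces IRF1, guanylate-binding proteins and the MHC class I pathway in particular. MHC class I molecules carry peptides to the cell surface for inspection by CD8 T cells. High MHC class I and an interferon signature in islets are known features of human autoimmune diabetes, and interferon-induced genes are also read at a low constitutive level without infection.

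Of the 32 genes, 25 had a promoter in the RefSeq table (GRCm38.p6), and the 250 bases upstream of each start were searched on both strands for GAAANNGAAA, a core form of the interferon-stimulated response element. It was present in 13 of the 25, against 3.04% of 27025 mouse promoters of the same length (821 promoters). TTCNNNGAA, a core form of the gamma-activated site, reads the same on both strands and was present in 6 of the 25, against 7.18% of all promoters (1940). The patterns can share letters and were counted separately, and a match describes letters in this window and not a bound site. The 6 promoters below belong to members whose values are described in what follows: Gbp2 and Igtp (GTPases), Isg15, Rsad2 and Bst2 (antiviral proteins) and B2m (the MHC class I light chain). They are printed from 5′ to 3′ on the strand of the gene and end at the base before the start, with GAAANNGAAA or its reverse complement in capitals.
Gbp2 (chr3:142620413-142620662, plus strand): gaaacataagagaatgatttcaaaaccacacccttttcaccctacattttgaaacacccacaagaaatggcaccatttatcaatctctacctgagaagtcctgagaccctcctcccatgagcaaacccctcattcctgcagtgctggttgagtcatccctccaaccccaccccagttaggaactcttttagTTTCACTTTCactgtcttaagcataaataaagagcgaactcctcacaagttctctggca
Igtp (chr11:58199306-58199555, plus strand): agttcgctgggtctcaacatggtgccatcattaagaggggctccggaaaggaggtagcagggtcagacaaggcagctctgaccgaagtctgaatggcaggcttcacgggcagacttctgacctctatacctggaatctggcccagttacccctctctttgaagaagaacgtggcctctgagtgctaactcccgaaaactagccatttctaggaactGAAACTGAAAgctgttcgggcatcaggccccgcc
Isg15 (chr4:156200819-156201068, minus strand): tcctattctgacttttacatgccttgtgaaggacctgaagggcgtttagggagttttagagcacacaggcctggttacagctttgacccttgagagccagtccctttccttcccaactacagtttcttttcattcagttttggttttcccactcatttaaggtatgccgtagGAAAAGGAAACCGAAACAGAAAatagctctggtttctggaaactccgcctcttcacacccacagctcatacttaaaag
Rsad2 (chr12:26456453-26456702, minus strand): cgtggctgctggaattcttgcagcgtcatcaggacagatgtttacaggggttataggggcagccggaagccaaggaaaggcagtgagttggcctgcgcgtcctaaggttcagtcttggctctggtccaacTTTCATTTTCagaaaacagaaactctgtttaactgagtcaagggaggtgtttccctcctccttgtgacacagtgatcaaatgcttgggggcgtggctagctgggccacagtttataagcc
Bst2 (chr8:71537473-71537722, minus strand): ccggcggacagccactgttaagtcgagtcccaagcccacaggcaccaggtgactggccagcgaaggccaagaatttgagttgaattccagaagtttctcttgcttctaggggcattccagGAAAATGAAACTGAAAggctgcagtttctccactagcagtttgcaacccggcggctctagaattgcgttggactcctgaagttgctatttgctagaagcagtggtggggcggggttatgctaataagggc
B2m (chr2:122147437-122147686, plus strand): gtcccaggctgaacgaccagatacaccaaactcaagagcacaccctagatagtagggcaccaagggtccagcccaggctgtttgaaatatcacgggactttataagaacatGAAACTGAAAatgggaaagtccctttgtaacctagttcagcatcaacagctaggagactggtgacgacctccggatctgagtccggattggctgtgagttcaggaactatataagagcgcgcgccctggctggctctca

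The files list 12444 to 5089 barcodes per library, with 121292320 to 60315217 UMIs in total, and 25220 cells passed the filters. Cells were placed in 7 classes from marker RNA, with the members and the other interferon pathway genes left out of the genes used for clustering, and classes are called macrophage-like and so on because they rest on RNA alone. The macrophage-like class held 160 and 150 cells in the CCR2-DTR libraries at 6 months and 1 month, and 94 and 149 cells in the WT libraries at the same ages. The endothelial-like class held 363 and 624 against 314 and 626 cells, the mesenchymal-like class 115 and 448 against 60 and 277, and the lymphocyte-like class, which was too small in WT to compare, 99 and 29 against 12 and 16. The beta-like class held 1078 and 2301 CCR2-DTR cells against 588 and 2911 WT cells, with 904 and 2463 against 752 and 2392 in the alpha-like and 336 and 714 against 358 and 677 in the delta-like class. Barcodes over 15% mitochondrial UMIs, a common sign of damage, were 23.9% and 18.4% in the CCR2-DTR libraries at 6 months and 1 month, against 12.2% and 9.37% in the WT libraries. Pairs of libraries shared 4 to 15 cell barcodes. Ccr2, the gene that drives the transgene, was read in the macrophage-like class of all libraries, at 348 and 355 CPM in CCR2-DTR and 237 and 120 CPM in WT. In beta-like cells 68 and 65 UMIs came from CCR2-DTR, against 0 and 1 UMI from WT, so these reads do not check the depletion, and whether they include transgene RNA was not tested.

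In all 4 libraries the interferon-induced members were highest in endothelial-like cells and lowest in endocrine cells. The 27 interferon-induced members summed to 4182 and 4246 CPM in endothelial-like cells of the CCR2-DTR libraries at 6 months and 1 month, and to 3418 and 4425 CPM in those of the WT libraries. Mesenchymal-like cells followed with 2647 and 2435 CPM in CCR2-DTR and 2123 and 2309 CPM in WT, and macrophage-like cells with 2507 and 1616 against 1906 and 1677 CPM. The order of these 2 classes rested on Ifitm3: without it the other 26 summed to 1289 and 1228 against 919.7 and 1092 CPM in mesenchymal-like cells and to more in macrophage-like cells of every library, at 1978 and 1255 against 1506 and 1359 CPM. Beta-like cells summed to 289 and 215 CPM in CCR2-DTR and 233 and 217 CPM in WT, and alpha-like and delta-like cells to between 226 and 333 CPM in every library. Among the 6 classes with enough cells, the class with the highest median level was the endothelial-like one for 20 members, the macrophage-like one for 10, the mesenchymal-like one for 1 (Ifi27) and the alpha-like one for 1 (Usp18). For 11 of the 20, 2 of the 10 and for Ifi27 the lowest library of the leading class was above the highest library of the next class, and for the other members the 2 leading classes overlapped. In 31 of 32 members at least 1 non-endocrine class was above every endocrine value, Usp18 being the exception.

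**Figure D1:**
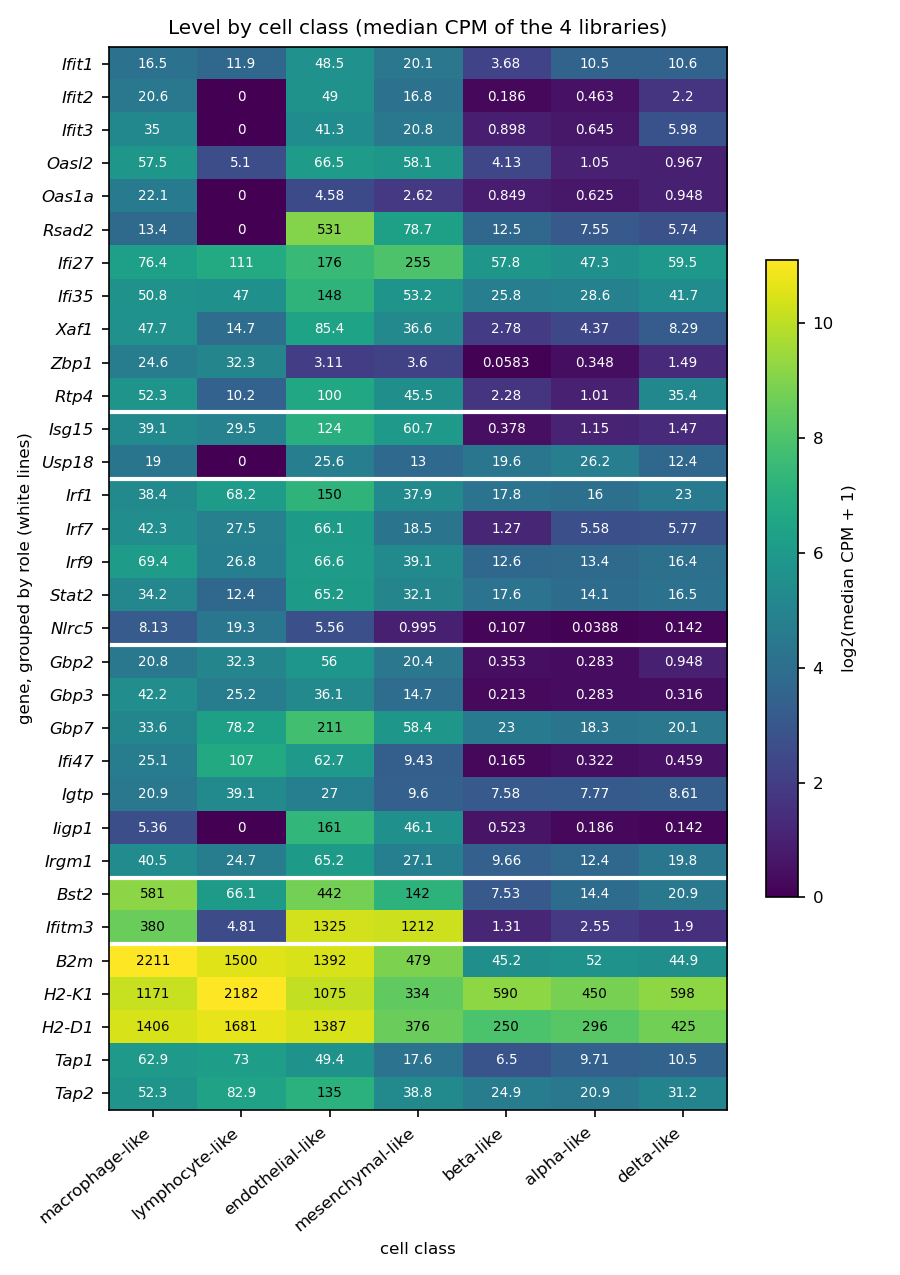
Level of each of the 32 genes (rows, grouped by role) in the 7 cell classes (columns), as log2 of the median CPM of the 4 libraries plus 1. Brighter colours are higher levels; most rows are brightest in endothelial-like or macrophage-like cells and dark in beta-, alpha- and delta-like cells, and H2-K1 and H2-D1 are bright in every class.

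The IFIT proteins bind foreign RNA and block its translation. Ifit1 had 47.7 and 50.9 CPM in endothelial-like cells of the CCR2-DTR libraries at 6 months and 1 month, against 33.2 and 49.3 CPM in those of the WT libraries, and 9.48 and 2.59 against 4.77 and 2.38 CPM in beta-like cells. Ifit2 had 53.8 and 46.7 against 46.7 and 51.4 CPM in endothelial-like cells and at most 0.280 CPM in beta-like cells of any library. Ifit3, whose reads can be split with its near copy Ifit3b, had 37.2 and 52.8 against 29.2 and 45.5 CPM in endothelial-like cells and 4.07 and 0.136 against 1.26 and 0.535 CPM in beta-like cells. All 3 genes were several-fold lower in beta-like than in endothelial-like cells of every library.

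Rsad2 (viperin, which makes a nucleotide that stops viral polymerases) was led by endothelial-like cells. It had 433 and 629 CPM there in the CCR2-DTR libraries at 6 months and 1 month, against 308 and 696 CPM in the WT libraries. In beta-like cells it had 23.03 and 9.60 CPM in CCR2-DTR and 11.8 and 13.3 CPM in WT, and the median over libraries was 42.4 times as high in the endothelial-like class. Oasl2, a relative of the 2-5 oligoadenylate synthetases, had 62.8 and 70.2 against 52.3 and 72.8 CPM in endothelial-like cells and 8.85 and 2.86 against 4.77 and 3.501 CPM in beta-like cells. Oas1a, which makes the 2-5 oligoadenylates that activate RNase L, was instead highest in macrophage-like cells, with 32.2 and 16.7 CPM in CCR2-DTR and 25.8 and 18.5 CPM in WT, against at most 9 CPM in endothelial-like and 2.24 CPM in beta-like cells.

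Among the other effectors, Ifi35 had 154 and 141 CPM in endothelial-like cells of CCR2-DTR against 119.8 and 161 CPM in those of WT, and between 24.1 and 29.1 CPM in beta-like cells. Xaf1, which opposes the apoptosis inhibitor XIAP, had 82.9 and 88.0 against 74.8 and 98.9 CPM in endothelial-like cells, and at most 3.37 CPM in beta-like cells. Zbp1, the sensor of Z-form nucleic acid that can start necroptosis, was highest, among the 6 classes compared, in macrophage-like cells at 47.3 and 11.9 CPM in CCR2-DTR and 22.8 and 26.4 CPM in WT, with at most 0.157 CPM in beta-like cells. The mitochondrial protein gene Ifi27 was the 1 member led by mesenchymal-like cells, with 225 and 255 CPM in CCR2-DTR and 290.4 and 256 CPM in WT. It kept between 53.8 and 58.8 CPM in the beta-like cells of all libraries, so it differed less between classes than most members.

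Rtp4, a chaperone of G protein-coupled receptors that is strongly induced by type I interferon, separated the endocrine classes. Endothelial-like cells had 86.9 and 100.3 CPM in the CCR2-DTR libraries at 6 months and 1 month, against 100.1 and 127 CPM in the WT libraries. Delta-like cells, which make somatostatin, had 36.4 and 34.4 CPM in CCR2-DTR and 27.8 and 52.9 CPM in WT. In beta-like cells the level was 2.66 and 2.04 against 2.52 and 1.60 CPM, and in alpha-like cells 1.93 and 0.930 against 1.09 and 0.417 CPM. The delta-like values did not overlap those of the other endocrine classes in any library.

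ISG15 is a ubiquitin-like protein joined to other proteins, and USP18 removes it and also blocks the type I interferon receptor. Isg15 had 120.1 and 128 CPM in endothelial-like cells of the CCR2-DTR libraries at 6 months and 1 month, and 100.1 and 129.7 CPM in those of the WT libraries, with 3.68 and 0.136 against 0.561 and 0.195 CPM in beta-like cells. Usp18 was the only member without a non-endocrine lead. It had 24.6 and 30.2 CPM in alpha-like cells of CCR2-DTR against 16.4 and 27.8 CPM in those of WT, 21.9 and 20.6 against 14.2 and 18.7 CPM in beta-like cells, and 20.6 and 28.9 against 25.9 and 25.3 CPM in endothelial-like cells. The ranges of these classes overlapped.

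Among the transcription factors of the pathway, the class ratios of Irf1, Irf9 and Stat2 were small beside those of Irf7 and Nlrc5. Irf1 had 184 and 133 CPM in endothelial-like cells of CCR2-DTR and 148 and 152 CPM in those of WT, with 18.9 and 16.4 CPM in beta-like cells of CCR2-DTR and 16.8 and 19.1 CPM in those of WT. Irf7, which amplifies the type I response, had 59.8 and 76.0 against 55.1 and 72.4 CPM in endothelial-like cells, and 4.62 and 1.09 against 0.841 and 1.46 CPM in beta-like cells. Irf9, whose gene overlaps Rnf31 on the same strand, had 59.9 and 56.0 against 79.0 and 87.2 CPM in macrophage-like cells and 15.7 and 11.8 against 12.9 and 12.3 CPM in beta-like cells. Stat2 had 53.8 and 74.5 against 57.9 and 72.4 CPM in endothelial-like cells and 18.6 and 13.3 against 18.9 and 16.6 CPM in beta-like cells. Nlrc5, the coactivator of MHC class I genes, had 27.7 and 7.15 CPM in macrophage-like cells of CCR2-DTR against 9.11 and 5.28 CPM in those of WT, and at most 0.157 CPM in beta-like cells. For Irf9 and Stat2 the leading class had 5.497 and 3.71 times the beta-like level, against 76.0 times for Nlrc5.

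Guanylate-binding proteins and immunity-related GTPases attack vacuoles that hold pathogens. In endothelial-like cells Gbp2 had 55.8 and 54.0 CPM in CCR2-DTR and 56.2 and 57.3 CPM in WT, and Gbp7 had 209 and 214 against 176 and 214 CPM. Gbp7 kept 28.4 and 17.1 against 28.3 and 17.6 CPM in beta-like cells, where Gbp2 had at most 2.27 CPM. Gbp3 overlapped between macrophage-like cells (83.1 and 38.1 CPM in CCR2-DTR, 36.4 and 46.2 CPM in WT) and endothelial-like cells (33.1 and 39.0 CPM in CCR2-DTR, 29.8 and 41.3 CPM in WT), and had at most 1.65 CPM in beta-like cells. Reads of the Gbp family can be split between near copies.

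The immunity-related GTPases Iigp1, Ifi47, Irgm1 and Igtp all had their highest median in endothelial-like cells. Iigp1 had 205 and 158 CPM there in the CCR2-DTR libraries at 6 months and 1 month, against 97.9 and 163 CPM in the WT libraries. In macrophage-like cells it had 12 and 20 UMIs in CCR2-DTR and 0 UMIs in both WT libraries, where 0 allows a level of up to 4.56 CPM at 6 months and 3.96 CPM at 1 month. Ifi47 had 72.3 and 61.0 against 54.6 and 64.4 CPM in endothelial-like cells, and at most 0.705 CPM in beta-like cells. Irgm1 had 71.3 and 61.3 against 47.8 and 69.0 CPM in endothelial-like cells and 11.5 and 8.57 against 10.1 and 9.24 CPM in beta-like cells. Igtp had 33.6 and 32.0 against 15.2 and 21.9 CPM in endothelial-like cells and 7.60 and 6.19 against 7.57 and 7.73 CPM in beta-like cells. The gene of Igtp overlaps Irgm2, and that of Ifi47 overlaps Olfr56, on the same strand. How reads in such overlaps were counted is not given in the sources used here, so the levels of Igtp, Ifi47 and Irf9 are uncertain to that extent.

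The membrane proteins Bst2 (tetherin, which holds budding virus on the cell) and Ifitm3 (which blocks fusion of virus with the endosome) were far above their endocrine levels in non-endocrine cells. Ifitm3 had 1370 and 1280 CPM in endothelial-like cells of CCR2-DTR and 1129 and 1383 CPM in those of WT, and 1357 and 1207 against 1204 and 1217 CPM in mesenchymal-like cells. In beta-like cells it had 1.10 and 2.99 against 1.12 and 1.51 CPM, a median ratio of 1008. Bst2 had 656 and 517 CPM in macrophage-like cells of CCR2-DTR and 626 and 536 CPM in those of WT, and 470.2 and 471 against 413 and 408 CPM in endothelial-like cells. Its beta-like level was 14.0 and 7.35 against 7.71 and 7.15 CPM.

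The MHC class I heavy chains H2-K1 and H2-D1 were read at 233 CPM or more in every class and library, while the light chain differed widely between classes. H2-K1 had 590.4 and 597 CPM in beta-like cells of the CCR2-DTR libraries at 6 months and 1 month, and 578 and 589.5 CPM in those of the WT libraries. Its macrophage-like level was 1852 and 933 against 1351 and 992 CPM, a median 1.99 times the beta-like level, and its lymphocyte-like level 2627 and 2105 against 2065 and 2260 CPM. H2-D1 had 254 and 274 against 233 and 246 CPM in beta-like cells and 2113 and 1097 against 1681 and 1132 CPM in macrophage-like cells. B2m, the light chain without which the heavy chains do not reach the surface, had 70.3 and 34.4 CPM in beta-like cells of CCR2-DTR and 51.9 and 38.6 CPM in those of WT, and its macrophage-like level was 2612 and 1566 CPM in CCR2-DTR and 2589 and 1833 CPM in WT, a median ratio of 48.9. Reads of the class I heavy chains can be split between near copies, so each level is uncertain to that extent.

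TAP1 and TAP2 form the pump that brings peptides to class I molecules. Tap1 had 108 and 56.0 CPM in macrophage-like cells of CCR2-DTR and 69.8 and 50.2 CPM in those of WT, and 8.54 and 6.26 against 6.59 and 6.42 CPM in beta-like cells. Tap2 had 158 and 103 against 143 and 126 CPM in endothelial-like cells and 27.2 and 22.5 against 33.5 and 20.7 CPM in beta-like cells. The beta-like values of both genes were below the leading class in each library.

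Free RNA bears on the low endocrine levels. Marker RNA of endothelial-like, macrophage-like and mesenchymal-like cells was read in beta-like cells at 0.879% and 1.02% (highest of 3 marker sets) of its level in its own class in the CCR2-DTR libraries at 6 months and 1 month, and at 0.543% and 0.709% in the WT libraries. By that measure 4 and 10 members in beta-like cells of CCR2-DTR, and 4 and 8 in those of WT, were at or under the background, and Zbp1 and Ifitm3 were so in all 4 libraries. At or under the background of alpha-like cells (up to 1.07%) were 5 and 9 members in CCR2-DTR and 6 and 13 in WT. Rsad2 and Rtp4 were among them at 1 month in both genotypes. In delta-like cells (up to 1.56%) 5 and 9 members in CCR2-DTR and 3 and 7 in WT were so. By this measure these levels cannot be told from background. The macrophage genes C1qa, C1qb and C1qc set it in every class and library, also for members led by endothelial-like cells. In alpha-like cells at 1 month endothelial markers alone stood at 0.189% in CCR2-DTR and 0.134% in WT, against 0.912% and 0.729% for Rsad2. H2-K1, H2-D1, B2m, Usp18, Irf1, Stat2, Gbp7 and Ifi27 were above the background in beta-like cells of all libraries.

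Levels summed over a class do not say how many cells carry the RNA, so each cell was thinned to 2000 UMIs, leaving out shallower cells, and cells with at least 3 of the 27 interferon-induced genes were counted. Of endothelial-like cells, 82.6% (270 of 327, exact 95% interval 78.0 to 86.5%) and 85.1% (490 of 576) did so in the CCR2-DTR libraries at 6 months and 1 month, and 72.7% (213 of 293, 67.2 to 77.7%) and 88.5% (468 of 529) in the WT libraries. In macrophage-like cells the share was 43.1% and 32.4% in CCR2-DTR and 36.1% and 41.6% in WT, and in mesenchymal-like cells 40.8% and 37.1% against 26.8% and 33.9%. Beta-like cells reached 0.281% and 0.0881% in CCR2-DTR and 0.175% and 0.104% in WT, and no endocrine class passed 1.14% in any library. Hormone RNA takes up part of the 2000 UMIs of an endocrine cell, which lowers its share. Without thinning, the shares were 92.3% and 93.4% against 93.0% and 94.3% in endothelial-like cells, and 39.98% and 11.7% against 36.6% and 14.3% in beta-like cells, which were deepest at 6 months (median 28700 and 14450 UMIs in CCR2-DTR, 29250 and 17440 UMIs in WT).

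**Figure D2:**
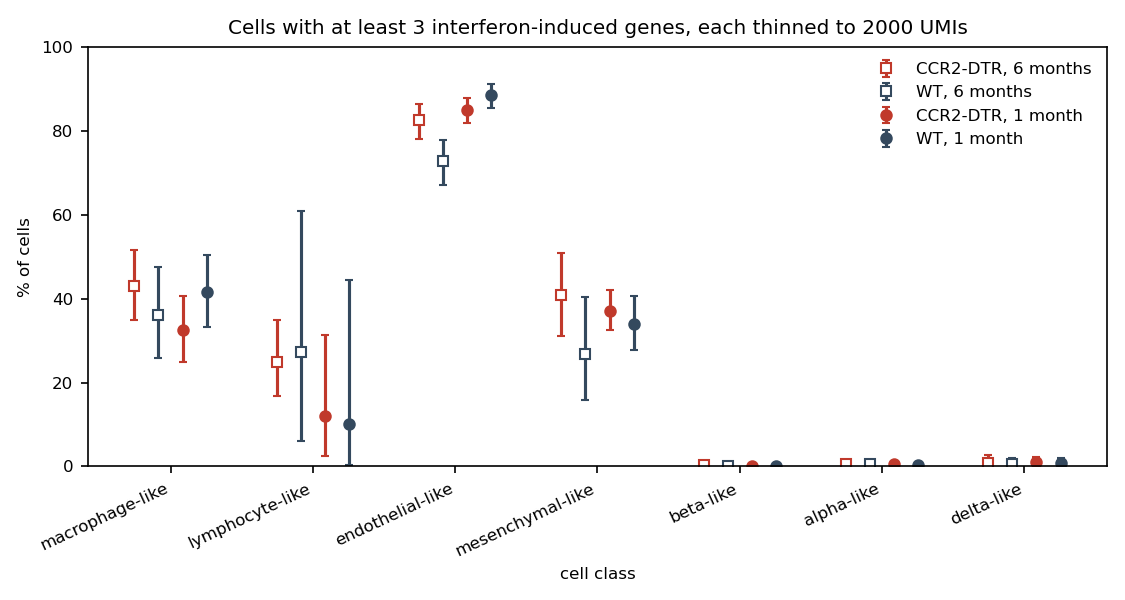
Percent of cells (vertical axis) of each class (horizontal axis) with at least 3 of the 27 interferon-induced genes after thinning to 2000 UMIs, with exact 95% intervals; CCR2-DTR in red and WT in dark blue, 6 months as open squares and 1 month as filled circles. Endothelial-like cells stand at 72.7 to 88.5% in all libraries and beta-, alpha- and delta-like cells near 0.

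Cells with at least 10 of the 27 genes, unthinned, were frequent in the leading class and rare in endocrine cells. They were 138 of 363 and 182 of 624 endothelial-like cells in the CCR2-DTR libraries at 6 months and 1 month, against 87 of 314 and 171 of 626 in the WT libraries. Mesenchymal-like cells had 17 of 115 and 29 of 448 in CCR2-DTR and 4 of 60 and 20 of 277 in WT. They were 30 of 160 and 8 of 150 macrophage-like cells in the CCR2-DTR libraries at 6 months and 1 month, against 11 of 94 and 7 of 149 in the WT libraries. Among beta-like cells they were 5 of 1078 and 0 of 2301 in CCR2-DTR and 1 of 588 and 1 of 2911 in WT. The 5 beta-like cells held 606 of the 3690 interferon-induced UMIs of their class, and 1 of them alone held 424, together with 385 UMIs of the chemokine gene Cxcl10. All 5 also held a UMI of the macrophage genes C1qa, C1qb or C1qc and their median depth was 51100 UMIs, against 28700 UMIs in the class. The part of doublets in these cells was not tested, and their highest doublet score was 0.0911, under the threshold of 0.25. Alpha-like cells had 5 and 1 such cells in CCR2-DTR and 5 and 0 in WT.

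The first comparison is of the genotypes at 6 months. Ratios of CCR2-DTR to WT are given on the log2 scale relative to the median gene of the class, and a gene is called higher or lower past the fold where it differs at least 1.5-fold from the median gene with an interval on the same side. Members with at least 20 UMIs over both libraries and 10 CPM in one were compared. In macrophage-like cells 31 of the 32 members qualified, and 13 were higher and 0 lower past the fold in CCR2-DTR, where 4.67% of all 7887 genes were higher and 3.23% lower. The median member stood 0.57 above the median gene and 27 of the 31 were above it. The 13 came from several roles: Irf1, Irf7 and Nlrc5 among transcription factors, Gbp2, Gbp3, Gbp7, Ifi47 and Igtp among GTPases, Ifit3, Rsad2, Isg15 and Zbp1 among effectors, and Tap1.

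**Figure D3:**
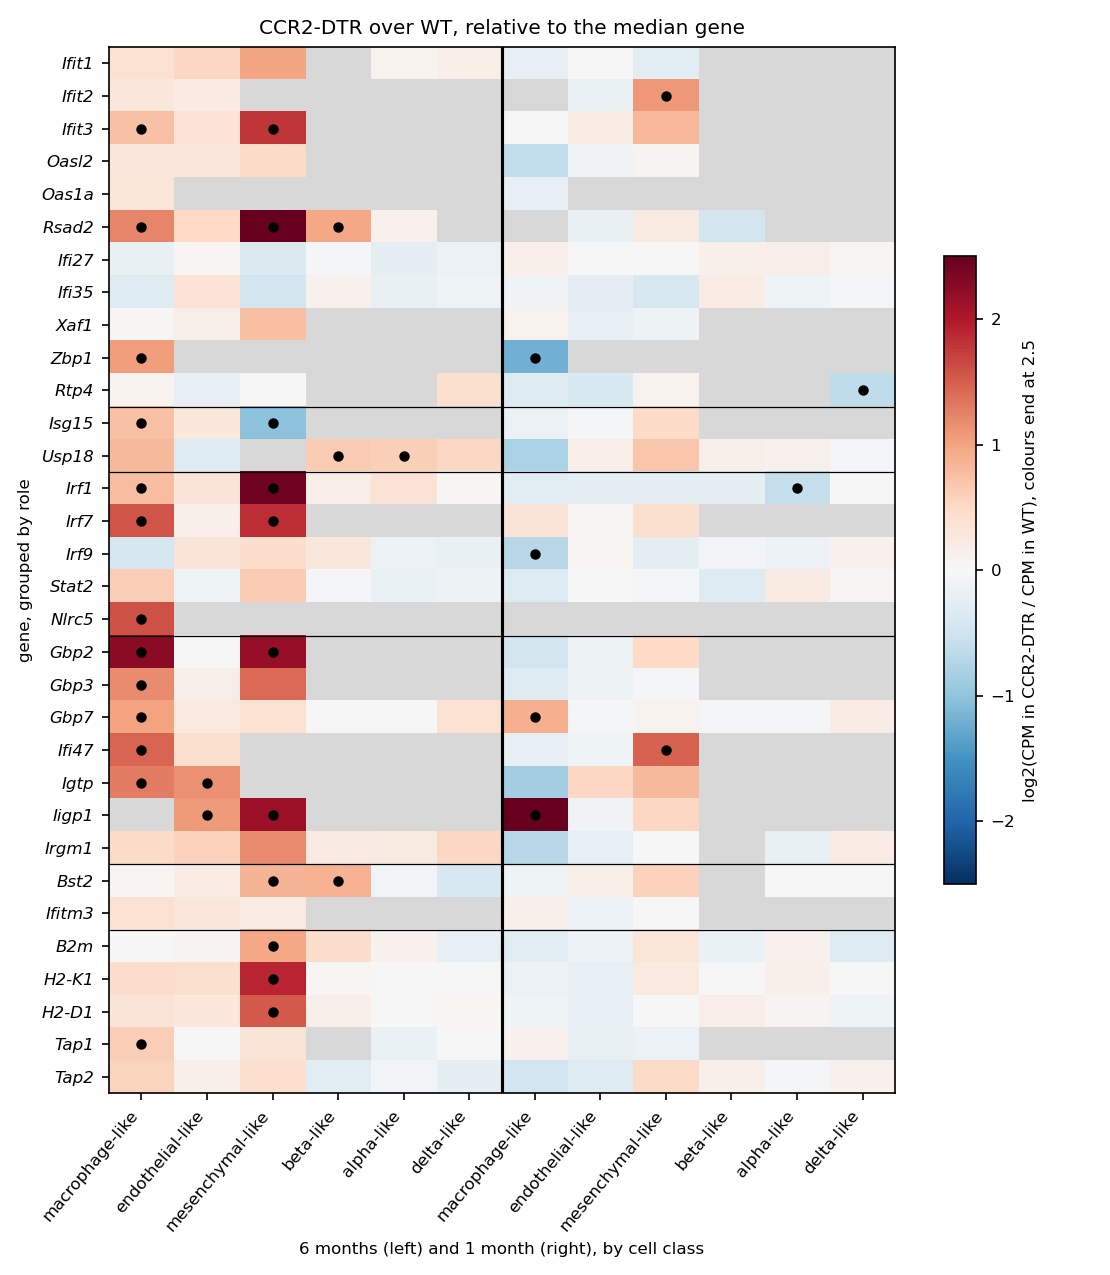
Log2 ratio of CCR2-DTR to WT, less the median gene, for each of the 32 genes (rows, by role) in 6 cell classes at 6 months (left block) and 1 month (right block). Black dots mark ratios past the fold and grey cells too few UMIs; dots gather in the macrophage-like and mesenchymal-like columns at 6 months (13 higher, and 10 higher with 1 lower).

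The furthest apart in macrophage-like cells at 6 months was Gbp2, with 59.0 CPM (66 UMIs) in CCR2-DTR against 12.2 CPM (8 UMIs) in WT, a log2 ratio of 2.26 (1.20 to 3.53). At 1 month the same gene had 17.9 CPM in CCR2-DTR and 23.8 CPM in WT, so CCR2-DTR at 6 months stood above the other 3 libraries. Nlrc5 followed with 27.7 against 9.11 CPM (1.59, 0.30 to 3.14) and Irf7 with 82.2 against 27.3 CPM (1.57, 0.83 to 2.39). Ifi47 had 63.4 against 22.8 CPM (1.46), Igtp 41.1 against 16.7 CPM (1.28), Rsad2 32.2 against 13.7 CPM (1.22) and Gbp3 83.1 against 36.4 CPM (1.17). Smaller ratios were those of Zbp1 (47.3 against 22.8 CPM, 1.04), Gbp7 (49.1 against 24.3 CPM, 1.00), Irf1 (73.2 against 42.5 CPM, 0.77), Ifit3 and Isg15 (each 71.5 against 42.5 CPM, 0.73) and Tap1 (108 against 69.8 CPM, 0.61).

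The RNA of several of these genes sat in few macrophage-like cells. For Ifit3, 5 cells held 64 of the 80 UMIs in CCR2-DTR and 5 cells 23 of the 28 UMIs in WT, and for Rsad2 31 of 36 against 8 of 9. When the 5% of cells with the highest share of interferon-induced RNA were left out of each library (8 and 5 cells), 8 of the 13 were still higher past the fold: Irf1, Irf7, Gbp2, Gbp3, Gbp7, Ifi47, Igtp and Nlrc5. The share of all genes past the fold without these cells is not given here. Gbp2 then had 48.0 against 11.0 CPM (2.11, 0.97 to 3.499). T and NK cell markers summed to 127 CPM in the macrophage-like class of CCR2-DTR, with all 10 of the list present, and to 74.4 CPM in that of WT, with 2 of 10 present and Cd3e, Cd3d, Cd3g, Trac, Trbc2, Cd8a, Nkg7 and Lck at 0. Acinar markers summed to 718 CPM (11 of 12) against 129 CPM (11 of 12), and their part was not tested. Leaving out cells with at least 3 markers of another class, 5 in CCR2-DTR and 1 in WT, again gave 13 members higher.

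The macrophage-like class held 2 kinds of cells, and the members past the fold were not the same in both. At a finer clustering, the cells led by the MHC class II invariant chain gene Cd74 numbered 90 in CCR2-DTR and 61 in WT at 6 months, and 9 members were higher (Ifit3, Isg15, Irf7, Gbp3, Rsad2, Ifi47, Igtp, Zbp1 and Ifitm3; 3.14% of all genes were) and Irf9 lower. In the cells led by the lysozyme gene Lyz2, 71 in CCR2-DTR and 33 in WT, 5 members were higher (Irf7, Gbp2, Gbp3, H2-K1 and Tap1; 5.46% of all genes were). Gbp2 had 54 UMIs in the Lyz2-led cells of CCR2-DTR and 0 in those of WT, at least 6.35-fold higher against the 3 UMIs that 0 allows, and 13 against 8 UMIs in the Cd74-led cells (0.25, -1.13 to 1.73). Irf7 and Gbp3 were past the fold in both kinds of cells. The share of all genes lower in each kind is not given here, and differences between the 2 kinds were not tested.

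**Figure D4:**
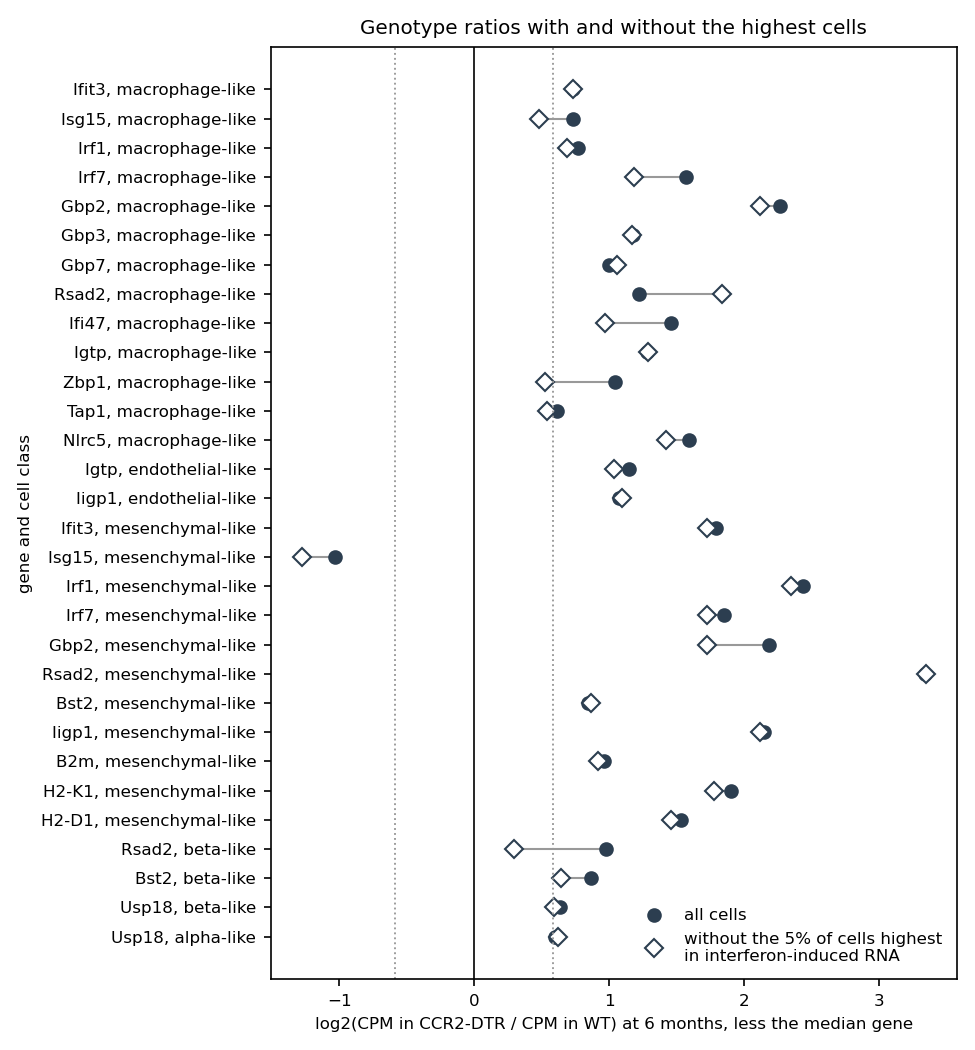
Log2 ratio of CCR2-DTR to WT at 6 months, less the median gene (horizontal axis), for each member past the fold in each class (rows), in all cells (filled circles) and without the 5% of cells highest in interferon-induced RNA (open diamonds). Gbp2 in macrophage-like cells stands at 2.26 in all cells and 2.11 without them, and Rsad2 in beta-like cells at 0.97 and 0.29.

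Mesenchymal-like cells at 6 months had 10 members higher and 1 lower of 25 compared, against 8.31% higher and 6.47% lower of all 7652 genes, with the median member 0.84 above the median gene. H2-K1 had 875 CPM in CCR2-DTR against 236 CPM in WT (1.90, 1.55 to 2.27), H2-D1 881 against 307 CPM (1.53) and B2m 929 against 481 CPM (0.96). Irf1 had 69.4 against 12.9 CPM (2.44, 0.98 to 4.37), Iigp1 70.9 against 16.1 CPM (2.15), and Bst2 184 against 103 CPM (0.84). Irf7 had 23 against 3 UMIs (1.85, 0.12 to 4.23) and Ifit3 22 against 3 UMIs (1.79, 0.05 to 4.17), and neither stayed past the fold without the 5% of highest cells, where both had 21 against 3 UMIs (1.73, -0.02 to 4.11). The other 8 higher members stayed past it. Gbp2 was read in 29 UMIs of CCR2-DTR against 0, at least 4.55-fold higher against the 3 UMIs that 0 allows. Isg15 went the other way, with 40.7 against 83.9 CPM (-1.03, -1.86 to -0.20).

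Rsad2 in this class depended on where a few cells were placed. It was read in 43 UMIs of CCR2-DTR against 2 of WT at 6 months (3.34, 1.40 to 6.43), with 37 of the 43 in 5 cells. At the finer clustering, 70 cells of the class were placed with the endothelial-like cells, 10 and 42 in CCR2-DTR at 6 months and 1 month and 2 and 16 in WT, and they held 311 of the 334 Rsad2 UMIs of the class. The mesenchymal-like class then had 2 against 0 Rsad2 UMIs at 6 months, and 5 against 0 with members allowed as clustering genes or with doublets kept, too few for a comparison. Irf7 was not past the fold under any of these 3 clusterings, and Isg15 was lower only at the finer one. Irf1, Gbp2, Bst2, Iigp1, B2m, H2-K1 and H2-D1 were higher under all 3.

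The make-up of the mesenchymal-like class differed between these libraries. It joined a cluster led by Rgs5, a pericyte gene, with 67 cells in CCR2-DTR and 53 in WT, and a cluster led by the collagen gene Col3a1, with 48 and 7 cells. Endothelial markers in the class summed to 2962 CPM in CCR2-DTR and 1533 CPM in WT, all 10 present in both, and macrophage markers to 184 CPM (10 of 10) against 19.4 CPM (3 of 10, with C1qb, Csf1r, Adgre1, Cd68, Lyz2, Tyrobp and Mrc1 at 0). Acinar markers summed to 611 CPM (11 of 12) against 100 CPM (10 of 12), and without the cells that held 3 markers of another class 8 members were higher and 0 lower. In the Rgs5-led cluster alone 11 members could be compared and 2 were higher, H2-K1 with 316 against 164 CPM (0.94, 0.39 to 1.52) and H2-D1 with 400.1 against 213 CPM (0.91, 0.42 to 1.42), against 4.06% of all genes. B2m (-0.15), Bst2 (-0.52) and Isg15 (-0.77) had intervals that reach across 0 there. The WT library held too few Col3a1-led cells for a comparison, so in the class as a whole genotype and make-up cannot be told apart. The part of other cell types in the Rgs5-led cluster was not tested.

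Endothelial-like cells, the class where 20 of 32 members were highest, had few members past the fold. Of 29 members compared at 6 months, 2 were higher and 0 lower, against 3.13% higher and 2.54% lower of all genes, while 24 of 29 were above the median gene and the median member stood at 0.26. The 2 were immunity-related GTPases: Iigp1 with 205 CPM in CCR2-DTR against 97.9 CPM in WT (1.07, 0.81 to 1.34) and Igtp with 33.6 against 15.2 CPM (1.15, 0.48 to 1.85). Iigp1 was read in 142 of 363 against 98 of 314 cells, and both genes stayed past the fold without the 5% of highest cells (1.10 and 1.04). At 1 month Iigp1 had 158 against 163 CPM, so at 6 months CCR2-DTR was the highest and WT the lowest of the 4 libraries. Macrophage markers in the class summed to 21.6 CPM (6 of 10, with C1qc, Csf1r, Tyrobp and Mrc1 at 0) in CCR2-DTR and 33.8 CPM (8 of 10, with Adgre1 and Mrc1 at 0) in WT, and mesenchymal markers to 97.4 CPM (9 of 10, with Pdgfra at 0) against 55.7 CPM (7 of 10, with Pdgfrb, Dcn and Lum at 0). Acinar markers moved more, at 882 CPM (12 of 12) against 104 CPM (11 of 12, with Amy2a5 at 0), as did beta cell markers, at 82530 against 46830 CPM (10 of 10 in both), and their part was not tested.

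**Figure D5:**
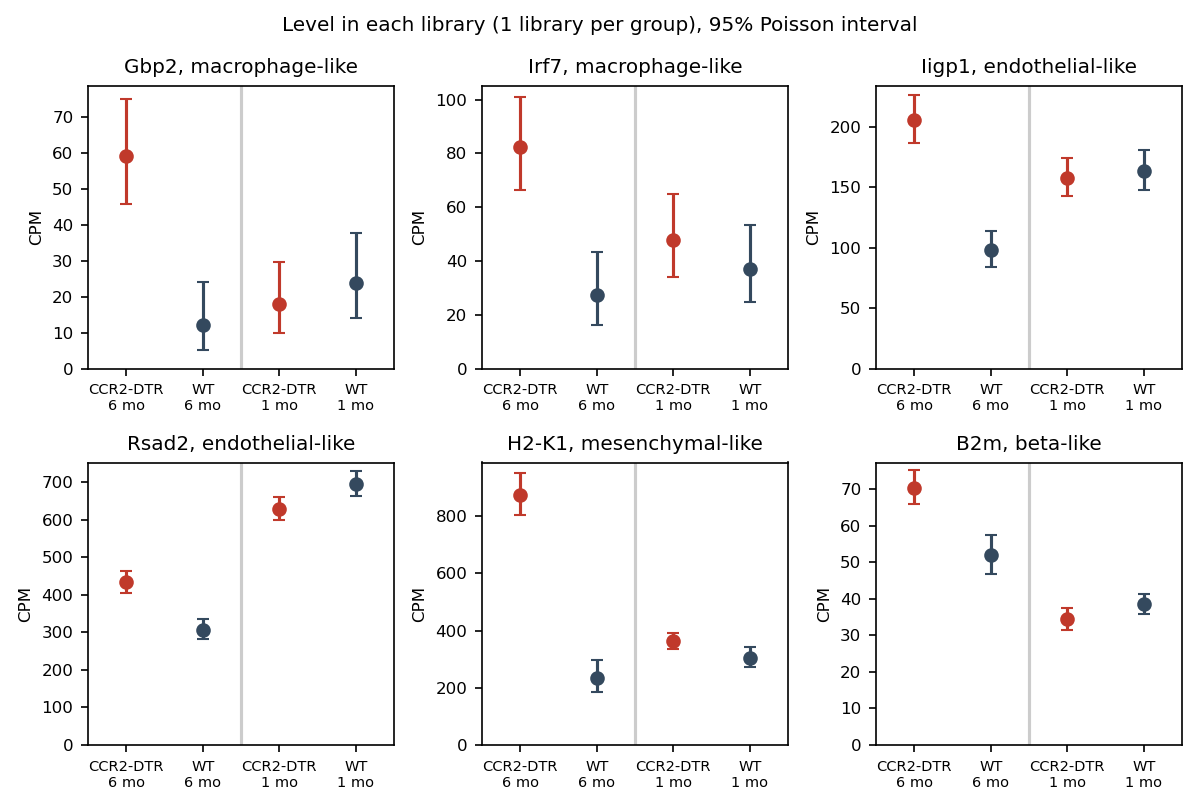
Level (CPM, vertical axis) of 6 genes in 1 cell class each, in the 4 libraries, with 95% Poisson intervals; CCR2-DTR in red and WT in dark blue, 6 months left of 1 month. Gbp2 and Irf7 in macrophage-like cells and H2-K1 in mesenchymal-like cells are high in CCR2-DTR at 6 months (59.0, 82.2 and 875 CPM), and B2m in beta-like cells is higher at 6 months in both genotypes.

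Endocrine cells at 6 months showed few differences. In beta-like cells 3 of 14 members were higher and 0 lower, against 0.621% and 0.779% of all 9504 genes. In alpha-like cells 1 of 16 was higher and 0 lower (1.23% and 0.545% of genes), and in delta-like cells 0 of 16 were higher or lower (1.45% and 1.64%). Usp18, the brake on interferon signalling, was higher in both beta-like cells (21.9 CPM in CCR2-DTR against 14.2 CPM in WT, 0.64, 0.30 to 0.98) and alpha-like cells (24.6 against 16.4 CPM, 0.60, 0.30 to 0.90), and stayed so without the 5% of highest cells (0.59 and 0.62). In both classes WT at 6 months was the lowest library for Usp18. In alpha-like cells CCR2-DTR at 6 months was below its 1-month level of 30.2 CPM. With members allowed as clustering genes Usp18 in beta-like cells had 0.58 (0.24 to 0.93), just short of the fold, Rsad2 0.28 (-0.10 to 0.68), and no member was past it in that class. Rsad2 in beta-like cells had 23.03 against 11.8 CPM (0.97), but 1 cell held 111 of the 294 UMIs in CCR2-DTR, and without the highest cells the ratio was 0.29 (-0.11 to 0.71). Bst2 had 14.0 against 7.71 CPM (0.87) in all cells and 6.14 against 3.95 CPM (0.65, -0.01 to 1.34) without them. With hormone and mitochondrial genes in the denominator, all 3 fell under the 10 CPM minimum for a comparison, with ratios of 0.97, 0.87 and 0.64. H2-K1 in beta-like cells had 590.4 against 578 CPM.

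At 1 month the genotypes differed little in the module. Macrophage-like cells had 2 members higher and 2 lower of 29, against 3.01% higher and 3% lower of all genes. Iigp1 had 20 UMIs in CCR2-DTR against 0 in WT, at least 5.80-fold higher against the 3 UMIs that 0 allows, and Gbp7 had 42.9 against 22.4 CPM (0.88, 0.01 to 1.81). Zbp1 had 11.9 against 26.4 CPM (-1.20, -2.46 to -0.04) and Irf9 56.0 against 87.2 CPM (-0.69, -1.26 to -0.13). Endothelial-like cells had none of 29 past the fold in either direction, where 2.55% of all genes were higher and 2.13% lower. Mesenchymal-like cells had 2 of 29 higher and 0 lower (4.57% and 3.31% of all genes), Ifit2 with 23.3 against 10.9 CPM (1.09) and Ifi47 with 13.9 against 4.98 CPM (1.48), neither of which was past the fold without the 5% of highest cells or under the 3 other clusterings, where Iigp1 was the 1 member higher. In the Rgs5-led cluster, with 8 against 4 UMIs of Ifit2, both had too few for a comparison. In the Col3a1-led cluster (164 against 79 cells) 28 members could be compared at 1 month, and 3 were higher, against 4.5% of all genes: Ifit2 with 34 against 7 UMIs (1.31, 0.12 to 2.73), Ifit3 (1.16, 0.03 to 2.48) and Isg15 (0.89, 0.25 to 1.57). Irf9 (-0.92) and Ifi35 (-0.81) were lower there, and the share of all genes lower in single clusters is not given here. The Col3a1-led cluster had 193 against 92 UMIs of Rsad2. At the finer clustering 42 and 16 cells of the mesenchymal-like class at 1 month were placed with the endothelial-like cells. These cells held 193 and 78 Rsad2 UMIs, and their part in the other ratios of the cluster was not tested. Beta-like cells had none of 12 (0.441% higher and 0.613% lower), alpha-like cells had 1 of 13 lower and 0 higher (0.554% and 0.937%), Irf1 at 14.7 against 21.8 CPM (-0.60), and delta-like cells had 1 of 14 lower and 0 higher (1.53% and 1.46%), Rtp4 at 34.4 against 52.9 CPM (-0.64). The 29 endothelial-like members had a median of -0.12 and the 29 macrophage-like members -0.20.

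Genotype differences past the fold were shared between classes for some members at 6 months and for none at 1 month. At 6 months 19 of the 32 members were higher past the fold in at least 1 of the 6 classes, against 10.8% of all genes compared in at least 1, and 1 was lower, against 9.41%. Of the 29 members compared in at least 2 classes 9 were higher in at least 2, against 1.39% of all genes so compared (Ifit3, Irf1, Irf7, Gbp2, Rsad2, Bst2, Igtp, Iigp1 and Usp18), and 1 (Rsad2) in 3. Of the 9, 5 were shared between macrophage-like and mesenchymal-like cells (Ifit3, Irf1, Irf7, Gbp2 and Rsad2). Without the 5% of highest cells 5 of the 9 kept their calls in at least 2 classes, namely Irf1, Gbp2, Igtp, Iigp1 and Usp18, and of those shared by macrophage-like and mesenchymal-like cells only Irf1 and Gbp2 did. In the Rgs5-led cluster alone Ifit3, Irf1, Irf7, Gbp2 and Rsad2 had too few UMIs for a comparison (Irf1 11 against 1). That cluster therefore cannot show whether their differences are shared. Igtp was shared between macrophage-like and endothelial-like cells, Iigp1 between endothelial-like and mesenchymal-like cells, Bst2 between mesenchymal-like and beta-like cells, and Usp18 between beta-like and alpha-like cells. Sharing also depended on the clustering. Irf1, Gbp2, Igtp and Iigp1 were shared under all 3 other clusterings, while Irf7 and Rsad2 were not past the fold in mesenchymal-like cells under any. Ifit3 was not past it there at the finer clustering. With members allowed as clustering genes no member was past the fold in beta-like cells, so Bst2 and Usp18 were not shared. Isg15 went in opposite directions, higher in macrophage-like and lower in mesenchymal-like cells. At 1 month 4 of 31 members compared were higher and 4 lower in at least 1 class, against 8.2% and 7.11% of all genes, and none was higher in 2, against 0.919%. Classes of 1 library come from the same islets and share its free RNA and preparation, so they are not independent of each other.

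Members past the fold in 1 class at both ages were Gbp7 (higher both times) and Zbp1 (lower at 1 month, higher at 6 months), both in macrophage-like cells. Neither keeps all of its calls without the 5% of highest cells, where Gbp7 had 39.7 against 20.4 CPM at 1 month (0.91, -0.02 to 1.90) and Zbp1 27.3 against 18.8 CPM at 6 months (0.52, -0.49 to 1.63).

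The other genes of the pathway were taken from lists of 122 genes (ligands, receptors and kinases, sensors, inhibitors, peptide loading, other class I heavy chains and other interferon-induced genes). None of the 13 interferon genes listed could be compared in any class. Ifnb1 had 0 UMIs in every class and library, and Ifng was read only in the lymphocyte-like class, with 13 and 0 UMIs in CCR2-DTR at 6 months and 1 month and 2 and 2 UMIs in WT. The receptors were read in all classes: Ifngr1 had 405 and 348 CPM in macrophage-like cells of CCR2-DTR against 425 and 275 CPM in those of WT, and 21.9 and 24.9 against 18.2 and 23.1 CPM in beta-like cells. Ifnar1 had 29.9 and 29.0 against 27.3 and 27.0 CPM in beta-like cells and 103 and 92.9 against 120.0 and 70.0 CPM in macrophage-like cells. Of the receptors and kinases, only Jak2 was past the fold by genotype in 2 classes, higher in macrophage-like cells at 6 months (50.9 against 19.7 CPM, 1.35) and lower in mesenchymal-like cells (25.6 against 74.2 CPM, -1.52).

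Over all 122 listed genes, 18 of the 88 compared in macrophage-like cells were higher in CCR2-DTR at 6 months and 0 lower, as were 6 (with 2 lower) of 82 in endothelial-like cells, 18 (with 2 lower) of 60 in mesenchymal-like cells, 1 of 53 in beta-like, 1 of 51 in alpha-like and 1 (with 1 lower) of 57 in delta-like cells. Of all genes 4.67%, 3.13%, 8.31%, 0.621%, 1.23% and 1.45% were higher in the same order of classes. At 1 month the counts were 3 higher and 1 lower of 81, 0 and 2 of 80, 8 and 2 of 78, 1 and 0 of 51, 0 and 0 of 51 and 0 and 0 of 54 in the same order, against 3.01%, 2.55%, 4.57%, 0.441%, 0.937% and 1.46% of all genes higher. Socs3, an inhibitor of cytokine signalling that is also induced by interleukin 6, was past the fold in 5 classes at 6 months. It had 139 against 48.6 CPM in macrophage-like cells (1.504), 73.8 against 38.8 CPM in endothelial-like cells (0.93), 60.3 against 16.1 CPM in mesenchymal-like cells (1.91), 46.9 against 20.3 CPM in alpha-like cells (1.22) and 10.8 against 4.83 CPM in delta-like cells (1.18). At 1 month Socs3 was higher in mesenchymal-like (40.02 against 21.9 CPM, 0.87) and beta-like cells (10.6 against 6.37 CPM, 0.73).

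Among class I heavy chains, H2-Q7 was higher at 6 months in macrophage-like (112 against 38.0 CPM, 1.54), endothelial-like (91.4 against 57.9 CPM, 0.66) and mesenchymal-like cells (34 against 1 UMI, 4.00, 1.42 to 9.35), and in mesenchymal-like cells at 1 month (21 against 3 UMIs, 1.96, 0.22 to 4.35). H2-Q6, its near copy, was higher in the same 3 classes at 6 months, with 47.3 against 13.7 CPM (1.78), 56.3 against 24.8 CPM (1.19) and 23 against 0 UMIs (at least 3.61-fold). Psmb9, a subunit of the immunoproteasome that cuts peptides for class I, had 250.1 against 131 CPM in macrophage-like cells (0.92) and 48.3 against 12.9 CPM in mesenchymal-like cells (1.91). Slfn2, of the Schlafen family, was higher at 6 months in macrophage-like (158 against 66.8 CPM, 1.23) and endothelial-like cells (79.9 against 50.1 CPM, 0.68), and lower in endothelial-like cells at 1 month (49.4 against 81.7 CPM, -0.76). Irgm2, an immunity-related GTPase whose gene overlaps Igtp, did the same in endothelial-like cells (37.2 against 21.9 CPM, 0.76, at 6 months, and 21.2 against 32.8 CPM, -0.67, at 1 month).

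Cxcl9 and Cxcl10, chemokines that draw T cells through CXCR3, had wide ratios that rested on few cells. In macrophage-like cells at 6 months Cxcl9 had 192 CPM in CCR2-DTR against 19.7 CPM in WT (3.27), from 12 of 160 cells against 1 of 94, and Cxcl10 had 179.5 against 28.9 CPM (2.62), from 11 against 3 cells. Cxcl10 was also higher there at 1 month, with 20 against 7 UMIs (1.31, 0.01 to 2.80), and Cxcl9 in mesenchymal-like cells at 6 months with 25 UMIs in 3 cells against 0 (at least 3.92-fold). In beta-like cells Cxcl10 had 447 against 2 UMIs (6.97, 5.11 to 10.02), of which 1 cell held 385. Ly6a, an interferon-induced surface protein, had 26.8 against 10.6 CPM in macrophage-like (1.32) and 495 against 87.1 CPM in mesenchymal-like cells (2.52) at 6 months, and 27 UMIs against 1 in macrophage-like cells at 1 month (4.55, 1.95 to 9.91). In mesenchymal-like cells Ly6e was higher at both ages (556.5 against 258 CPM, 1.12, and 621 against 397 CPM, 0.64), and Ifi27l2a higher at 6 months (87.5 against 16.1 CPM, 2.45) and lower at 1 month (37.2 against 62.7 CPM, -0.75). All pathway ratios in mesenchymal-like cells at 6 months go with the make-up of the class (48 against 7 Col3a1-led cells) and its endothelial markers (2962 against 1533 CPM), and Ly6a is among the 10 leading genes of the endothelial-like cluster, so genotype and make-up cannot be told apart there.

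The second comparison is of 6 months with 1 month within each genotype, which uses the same 4 libraries. In macrophage-like cells of CCR2-DTR all 32 members could be compared, and 24 were higher and 0 lower at 6 months, against 9.15% higher and 10% lower of all 8643 genes, with the median member 1.19 above the median gene. In WT 6 of 29 were higher and 0 lower (6.83% and 7.12% of all genes; median 0.44). The median gene itself shifted by -0.22 in CCR2-DTR and -0.19 in WT, and ratios are given relative to it. Macrophage-like cells at 6 months were deeper, at a median of 7476 UMIs against 5421 in CCR2-DTR and 8086 against 4699 in WT. Markers of other cells moved with age in this class. Beta cell markers (10 of 10) summed to 41570 CPM at 6 months against 124400 CPM at 1 month in CCR2-DTR and to 56360 against 130700 CPM in WT, and alpha cell markers to 14950 against 52410 CPM (9 of 9) and to 13010 (8 of 9) against 30130 CPM (9 of 9). T and NK cell markers summed to 127 CPM (10 of 10) against 76.2 CPM (2 of 10) in CCR2-DTR and to 74.4 against 51.5 CPM (2 of 10 each) in WT. The part of these in the change was not tested.

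Of the 6 members higher in WT macrophage-like cells at 6 months, all 6 were also higher in CCR2-DTR. With doublets kept only Ifit2 and Ifi27 stayed past the fold in WT. With members allowed as clustering genes all but Tap1 did, and at the finer clustering all 6 did. Ifit2 had 39.3 CPM at 6 months against 5.96 CPM at 1 month in CCR2-DTR (2.94, 1.61 to 4.64) and 31.9 against 9.24 CPM in WT (1.97, 0.69 to 3.45). Ifi27 had 95.6 against 57.2 CPM in CCR2-DTR (0.96) and 108 against 50.2 CPM in WT (1.29). B2m had ratios of 0.96 in CCR2-DTR and 0.69 in WT, H2-K1 1.21 and 0.63, H2-D1 1.17 and 0.76, and Tap1 1.17 and 0.66. Zbp1 (47.3 against 11.9 CPM, 2.21) and Nlrc5 (27.7 against 7.15 CPM, 2.18) were among the furthest in CCR2-DTR only, and the difference between the genotypes was not tested. Gbp2 (1.95), Rsad2 (1.98), Stat2 (1.46), Ifit1 (1.34) and Tap2 (1.28) were also higher in CCR2-DTR.

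B2m was the member higher with age in the most classes, higher at 6 months in all 6 classes of CCR2-DTR and in 4 of WT. In beta-like cells it had 70.3 against 34.4 CPM in CCR2-DTR (0.97, 0.82 to 1.13) and 51.9 against 38.6 CPM in WT, short of the fold. In alpha-like cells it had 66.4 against 41.7 CPM in CCR2-DTR (0.73) and 62.4 against 37.8 CPM in WT (0.75), and in delta-like cells 51.9 against 31.0 CPM (0.74) and 60.7 against 38.0 CPM (0.64). Endothelial-like cells had 1848 against 956 CPM in CCR2-DTR (1.00) and 1760 against 1025 CPM in WT (0.79). B2m in endocrine cells was at a small share of the highest non-endocrine class. That share was 2.00 to 2.69% in beta-like, 2.06 to 2.66% in alpha-like and 1.98 to 2.35% in delta-like cells. Free RNA reached 1.02%, 1.07% and 1.56% in the same classes, and its part in the endocrine change was not tested. H2-K1 and H2-D1 were higher at 6 months in endothelial-like cells of CCR2-DTR (1.05 and 0.93) and in its mesenchymal-like cells (1.31 and 1.26). Among the class I genes outside the module, H2-T23 was higher at 6 months in all 6 classes of CCR2-DTR and in macrophage-, beta-, alpha- and delta-like cells of WT, with 30.3 against 15.4 CPM in beta-like cells of CCR2-DTR (0.92) and 32.7 against 15.4 CPM in those of WT (1.03).

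In endothelial-like cells the median member stood 0.10 above the median gene with age in CCR2-DTR, and at -0.31 in WT. CCR2-DTR had 4 of 29 higher and 0 lower (5.46% and 6.09% of all genes), namely B2m, H2-K1, H2-D1 and Tap2, the last with 158 against 103 CPM (0.67). WT had 1 higher (B2m) and 3 lower (4.79% and 5.2% of all genes): Rsad2 with 308 CPM at 6 months against 696 CPM at 1 month (-1.16, -1.30 to -1.02), Iigp1 with 97.9 against 163 CPM (-0.72) and Ifit3 with 29.2 against 45.5 CPM (-0.62). The difference between the genotypes in this change was not tested.

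In mesenchymal-like cells, whose make-up changed with age too, 6 members were higher and 4 lower of 29 in CCR2-DTR (6.35% and 6.07% of all genes), and 1 higher and 2 lower of 21 in WT (5.48% and 6.49%). Higher in CCR2-DTR under the 3 other clusterings as well were B2m, H2-K1, H2-D1, Stat2 (0.72) and Gbp2 (0.91). The calls of the lower ones differed between clusterings, and only the Rsad2 UMIs were traced to the 70 cells described above. Rsad2 had 64.8 against 109 CPM in CCR2-DTR (-0.71) and 2 against 93 UMIs in WT (-3.82, -6.88 to -1.92), but with doublets kept or members allowed as clustering genes it had 5 against 3 UMIs in CCR2-DTR (2.11 and 2.13), at the finer clustering 2 against 3, and under all 3 it had 0 against 15 in WT, too few for a comparison. Isg15 (-0.75 in CCR2-DTR, 0.75 in WT) and Ifit2 (-1.91 in CCR2-DTR) were not past the fold under any of the 3. Rtp4 (-0.95 in CCR2-DTR) was lower under 2 of them. Irf1 (1.02 in CCR2-DTR, -1.64 in WT) was higher under 1 and lower under 2.

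Among the members compared in alpha-like and delta-like cells, Ifit1 was furthest above its 1-month level in both genotypes. In beta-like cells it was under the minimum for a comparison. In alpha-like cells it had 14.4 against 5.97 CPM in CCR2-DTR (1.33, 0.93 to 1.75) and 13.7 against 7.23 CPM in WT (0.95, 0.56 to 1.34), and in delta-like cells 16.1 against 6.20 CPM (1.37) and 14.5 against 6.68 CPM (1.07). Beta-like cells had 4 of 14 higher and 0 lower in CCR2-DTR (3.39% and 3.17% of all genes), namely Rsad2 (1.20), B2m, Bst2 (0.87) and Gbp7 (0.67), and 2 of 13 higher and 0 lower in WT (2.99% and 2.06%), Gbp7 (0.63) and Tap2 (0.65). As given above, part of the Rsad2 RNA of CCR2-DTR at 6 months sat in a single beta-like cell. Age ratios were not recomputed without the 5% of highest cells. With members allowed as clustering genes only Gbp7 and B2m stayed higher in CCR2-DTR. At the finer clustering or with doublets kept all 4 did. Gbp7 was thus higher with age in beta-like cells of both genotypes, at 28.4 against 17.1 CPM and 28.3 against 17.6 CPM. Alpha-like cells had 3 of 15 higher and 0 lower in CCR2-DTR (2.82% and 2.5%), with Rsad2 at 0.86, and 2 higher and 2 lower in WT (2.43% and 2.24%), the lower ones being Usp18 (16.4 against 27.8 CPM, -0.73) and Irf1 (13.7 against 21.8 CPM, -0.64). The 1-month level of Rsad2 in alpha-like cells was at or under the free RNA background set by macrophage genes, but above that of endothelial markers. With members allowed as clustering genes only B2m stayed higher in alpha-like cells of CCR2-DTR. At the finer clustering or with doublets kept all 3 did. Delta-like cells had 3 of 16 higher and 0 lower in CCR2-DTR (5.22% and 3.88%), with Tap1 at 0.86, and 3 higher and 1 lower in WT (4.59% and 3.23%), Tap2 (0.71) among the higher and Rtp4 (27.8 against 52.9 CPM, -0.97) lower. In delta-like cells of CCR2-DTR Tap1 was not past the fold under any of the 3 other clusterings.

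Of the 122 other genes, 51 were higher at 6 months in at least 1 class of CCR2-DTR, 18 in at least 2, and 7 lower in at least 1, where 18.2%, 4.21% and 17.8% of all genes compared were. In WT the counts were 30, 6 and 13, where 15.9%, 2.94% and 14.3% of all genes were. Of the 122, 100 in CCR2-DTR and 96 in WT were compared in at least 1 class, and 86 and 73 in at least 2. H2-Q4 and H2-Q7 were higher in macrophage-like and endothelial-like cells of both genotypes, H2-Q6 in endothelial-like cells of both, and Psmb8, Tapbp, H2-M3, Herc6, Ms4a4c and Cxcl10 in macrophage-like cells of both. Parp14 was higher in mesenchymal-like, beta-like (22.9 against 11.5 CPM in CCR2-DTR, 0.93, and 24.5 against 13.3 CPM in WT, 0.83) and delta-like cells of both. Among those higher in 2 or more classes in CCR2-DTR were Socs3, Psmb9, H2-T22, Parp9, Slfn2, Gbp5 and Cxcl9, and H2-T22 also in 2 of WT. Ly6e was lower at 6 months in beta-like (-0.59 in CCR2-DTR, -0.60 in WT) and delta-like cells of both genotypes, Ifitm2 in beta-like cells of both, Isg20 in macrophage-like cells of both and Cmpk2 in mesenchymal-like cells of both. Slfn2 in endothelial-like cells, and Tapbp, Ly6a and Ifi27l2a in mesenchymal-like cells, were higher at 6 months in CCR2-DTR and lower in WT, and Il10rb was higher in macrophage-like and lower in mesenchymal-like cells of WT.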

How the data were processed

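The authors deposited, for each of the 4 libraries, a matrix of unnormalized UMI counts, with genes in rows and barcodes in columns (10x Chromium; Cell Ranger 5.0.1 and mm10, per the submitters' processing notes). The 8 other deposited files hold barcodes and gene names and no measurement. The sources used here give neither the annotation release nor the treatment of intronic reads. No column went unused.

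Barcodes with at least 1000 UMIs, 500 genes, at most 15% mitochondrial UMIs and a Scrublet score of at most 0.25 were kept. Cells were clustered with scanpy 1.11.5 (counts scaled to 10000 per cell, 2000 variable genes without the members, pathway, digestive and haemoglobin genes, 30 components, 15 neighbours, Leiden resolution 1 with leidenalg 0.10.2) into 23 clusters, named from marker RNA. Of the 25220 cells, 546 dividing, 4220 unnamed and 1444 cells of other types stayed outside the 7 classes. Counts were summed per class and library, and the exact conditional interval for 2 Poisson counts came from scipy 1.17.1. Ratios were computed for all genes, between classes of at least 50 cells in both libraries. Single clusters were compared with fewer, as in the Lyz2-led cells of WT at 6 months (33 cells). The ratios were checked on simulated Poisson counts. These lack the uneven spread of RNA among cells, so that check does not cover it. A count of 0 was set to 3 counts, which gives a bound.

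All members are given by role. Ratios are named for members past the fold in at least 2 classes at 1 age or 1 class at both ages, or among the 3 furthest of a comparison, and for other pathway genes by the first 2 parts of that rule; the remaining members past the fold are added. Members, lists and rules were chosen with earlier results of these data known. Alternatives were another denominator, doublets kept, a stricter mitochondrial limit, resolution 2, members allowed in clustering, cells weighed equally, other minimum counts, each library left out of the levels, and other thinning. Added after seeing the data were the single clusters, cells with other markers left out, and the 5% of highest cells left out. Promoter sequences come from the RefSeq table of GRCm38.p6.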

Additional observations from a re-analysis of the deposited data

Results flagged for a closer look

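Zbp1, the Z-form nucleic acid sensor, stood out in macrophage-like cells because its ratio of CCR2-DTR to WT went in opposite directions at the 2 ages. At 6 months the log2 ratio was 1.04 (0.19 to 1.97), from 53 UMIs in CCR2-DTR against 15 UMIs in WT, and at 1 month it was -1.20 (-2.46 to -0.04), from 10 against 20 UMIs. The difference between the ages was not tested, and neither ratio was past the fold without the 5% of cells highest in interferon-induced RNA (0.52 at 6 months and -1.09 at 1 month).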

How the results depend on the processing

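No paired analysis was possible because each genotype and age is a single library. Of the recomputed counts and shares 270 stayed close to their main value and 65 moved. Ratios of shares in mesenchymal-like and alpha-like cells at 1 month changed direction, as given below. Of 983 recomputed ratios of single members 925 stayed inside their interval and 8 changed sign. The 10 members led by macrophage-like cells were 8 to 13 when 1 library was left out, the 20 led by endothelial-like cells 18 to 22. The counts of 13 members higher in macrophage-like and 2 in endothelial-like cells at 6 months changed by over 1.5 times only where given below.

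Members higher or lower in CCR2-DTR were recounted as follows, at 6 months unless 1 month is named. Except where a share stands above, neither the numbers compared nor the shares of all genes are given for these recounts. They therefore show how the counts move and cannot be set against a background. With CPM over all UMIs, 0 were higher in beta-like cells, since they fell under the CPM minimum. With doublets kept, 1 was higher in macrophage-like, 1 in endothelial-like and 1 in mesenchymal-like cells at 1 month, and 0 were lower in mesenchymal-like cells. Over 6 classes 2 were then lower with age in CCR2-DTR and 5 in WT, against 4 and 8, and Rsad2 in mesenchymal-like cells of CCR2-DTR had an age ratio of 2.11 in place of -0.71. With a mitochondrial limit of 10%, 1 was lower in macrophage-like, 4 higher in mesenchymal-like and 0 lower in alpha-like cells at 1 month. At resolution 2, 1 was higher in macrophage-like, 1 in mesenchymal-like, 1 lower in beta-like and 0 lower in delta-like cells at 1 month, 7 were higher in beta-like cells, and 1 was lower with age in CCR2-DTR. With members allowed as clustering genes, 1 was higher in mesenchymal-like and 0 lower in delta-like cells at 1 month, 0 were lower in mesenchymal-like and 0 higher in beta-like cells, 0 were lower with age in CCR2-DTR, and the Rsad2 age ratio was 2.13.

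With each cell weighing the same, 1 was higher in macrophage-like and 0 lower in alpha-like and delta-like cells at 1 month, 2 members were led by mesenchymal-like cells, and Ifit3 in macrophage-like cells had -0.43. With at least 50 UMIs and no CPM minimum, 1 was higher and 1 lower in macrophage-like, 1 higher in mesenchymal-like, 1 higher in beta-like, and 1 higher and 2 lower in alpha-like cells at 1 month, while 6 were higher in mesenchymal-like and 8 in beta-like cells and 1 lower in alpha-like cells. With no CPM minimum, 1 was higher in beta-like, and 1 higher and 2 lower in alpha-like cells at 1 month, and 11 were higher in beta-like and 1 lower in alpha-like cells. Without cells with 3 markers of another class, 0 were higher in macrophage-like and 1 in mesenchymal-like cells at 1 month, and 0 lower in mesenchymal-like cells.

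In the Rgs5-led cluster, 0 were higher at 1 month, and 2 higher and 0 lower at 6 months, with Bst2 at -0.52 and B2m at -0.15. In the Cd74-led cells 1 was higher at 1 month and 1 lower at 6 months, with Tap1 at -0.12. In the Lyz2-led cells 1 was higher and 0 lower at 1 month and 5 higher at 6 months, with Ifit3 at -0.80 and Rsad2 at -0.82. Without the 5% of highest cells, 0 were higher and 1 lower in macrophage-like, 0 higher in mesenchymal-like and 0 lower in alpha-like cells at 1 month, and 8 were higher in macrophage-like, 1 in beta-like and 1 in delta-like cells. The log2 ratio of shares of cells with several genes moved, thinned to 1000 UMIs, to -1.31 in macrophage-like, -0.40 in mesenchymal-like and -1.04 in alpha-like cells at 1 month. With at least 5 genes it was -1.08 in macrophage-like, -0.29 in endothelial-like and -0.38 in mesenchymal-like cells at 1 month, and 0.54 in endothelial-like and 1.62 in mesenchymal-like cells. The main ratios of CCR2-DTR to WT at 1 month, not on the log2 scale, were 0.779 in macrophage-like and 0.962 in endothelial-like cells. They were 1.09 in mesenchymal-like and 1.35 in alpha-like cells. The mesenchymal-like ratio thus changed direction under both alternatives, and the alpha-like ratio at 1000 UMIs, where it rested on 1 against 2 cells. Where fewer cells or genes entered, counts are lower by construction; the cause of the other changes was not tested. Depth limits the lymphocyte-like class, members under 20 UMIs and all ratios in the mesenchymal-like class of WT at 6 months (60 cells).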
